A study of Oryza sativa Indica Group with 27 samples.

Results

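The microRNAs (miRNAs) of wild-type Nipponbare rice (WT) were compared before and 1 h after the start of dehydration. The table of mature miRNAs has 292 rows, and a row is 1 miRNA name or several names that the table joins, such as the 6 names osa-miR166a, b, c, d, f, and n. A row was kept when it had at least 10 reads in the library of 0 h after treatment (HAT) or in the library of 1 HAT. This left 127 of the 292 rows, with 228 of 472 names and 77 of 169 families, a family being the names with the same number. The prefix osa-, for rice, is left out below, and "the miR166a row" stands for a row of joined names.

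The plants were Nipponbare rice without a transgene, grown in Yoshida culture solution to the three-leaf stage. The plants of 1 HAT had been dehydrated for 1 h by removal of the solution, and the plants of 0 HAT were untreated. Whole plants were frozen, so shoots and roots were in 1 extract, and fewer cells of a type cannot be told apart from less RNA per cell. Each time point had 1 small RNA library, and the number of plants in a library is not given in the sources used here. The differences below are therefore those between single libraries, and the effect of dehydration could not be tested. Although the cultivar label reads Nipponbare, a japonica rice, the organism label names the Indica Group. The columns of the OsERF71 overexpressor (erf71) and of the cultivar Vandana hold the same reads as the WT columns in 292 of 292 rows at each time point. They were not used as other plants, and that the reads are those of WT rests on the column names.

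Plant miRNAs are cut by a Dicer enzyme, DCL1 in most cases, from a hairpin whose arms give a 5p and a 3p strand. An Argonaute protein, mainly AGO1, holds 1 strand and cleaves or represses mRNAs with a matching site. Many families shared by flowering plants target transcription factors of development, and others target mRNAs of nutrient use, copper proteins, or the silencing machinery itself.

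Values were deposited as reads per 1000000 reads (RPM). They were whole multiples of 1 read, which was worth 4.92 RPM at 0 HAT and 4.68 RPM at 1 HAT, and gave 203276 and 213459 reads. These RPM summed to 1000000 over the listed miRNAs, so each value is a share of the miRNA reads and not an amount per plant or per total RNA. The ratio of RPM at 1 HAT to RPM at 0 HAT is given with a 95% exact (Clopper-Pearson) interval. It allows for counting error between the libraries only and takes each read as an independent draw. Reads amplified by PCR without molecular identifiers are not independent molecules, so the intervals may be too narrow even for sampling error. The words "beyond counting error" are used below in this limited sense. For a row with 10 reads in each library this interval spanned 0.374 to 2.68, and for 1000 reads in each it spanned 0.915 to 1.09. For a row with 0 reads in a library, the exact 95% interval of its share of the reads reached 0.00181% at 0 HAT and 0.00173% at 1 HAT.

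A few rows held most of the reads in both libraries. The 127 rows took 99.9% of the listed reads at 0 HAT and at 1 HAT. The 10 rows with the most reads took 86.6% and 87.1%, and the top 2, the miR166a row and miR168a-3p, took 53.2% and 53.4%. Exact 95% intervals of these shares, and of the shares of families and groups below, extended at most 0.271 percentage points to either side.

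**Figure D1:**
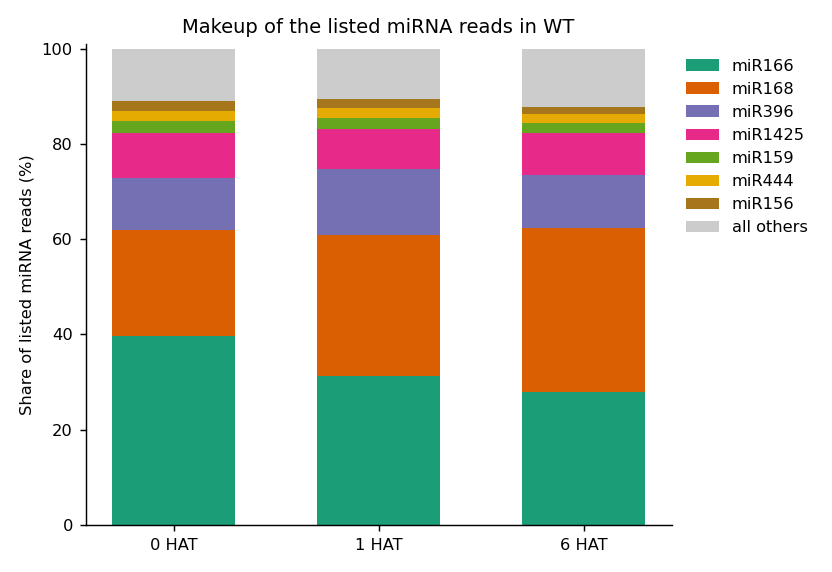
Stacked bars give the share of all listed miRNA reads (%) in the 7 families with the most reads at 0 HAT and in all others, in the single WT library of 0, 1, and 6 HAT. miR166 took 39.6%, 31.2%, and 27.9% of the reads, while miR168 took 22.3%, 29.7%, and 34.5%. The miR168 share sums miR168a-3p and the row named miR168a, which moved apart between 0 and 1 HAT.

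Most miRNAs had similar levels in both libraries. The median ratio over the 127 rows was 0.952, with quartiles of 0.852 and 1.19, and 94 rows (74.0%) lay within 1.5-fold. At least 2-fold higher at 1 HAT were 7 rows (5.51%), and at least 2-fold lower were 5 rows (3.94%). The interval lay above 1 for 16 rows (12.6%) and below 1 for 26 rows (20.5%), so differences beyond counting error were more often small differences of abundant miRNAs than 2-fold ones.

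The size of the ratio went with the number of reads behind it. The 38 rows with 10 to under 50 reads in both libraries together ranged from 0.286 to 4.29 and held 10 of the 12 rows past 2-fold, although the interval of only 5 of them excluded 1. The 24 rows with 1000 reads or more ranged from 0.678 to 1.49, with 0 past 2-fold, and the interval of 19 excluded 1. With at least 10 reads in each library, 3 of 113 rows were past 2-fold. Of the 14 rows under 10 reads in 1 library, 9 were, and these entered through the library in which they were higher.

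**Figure D2:**
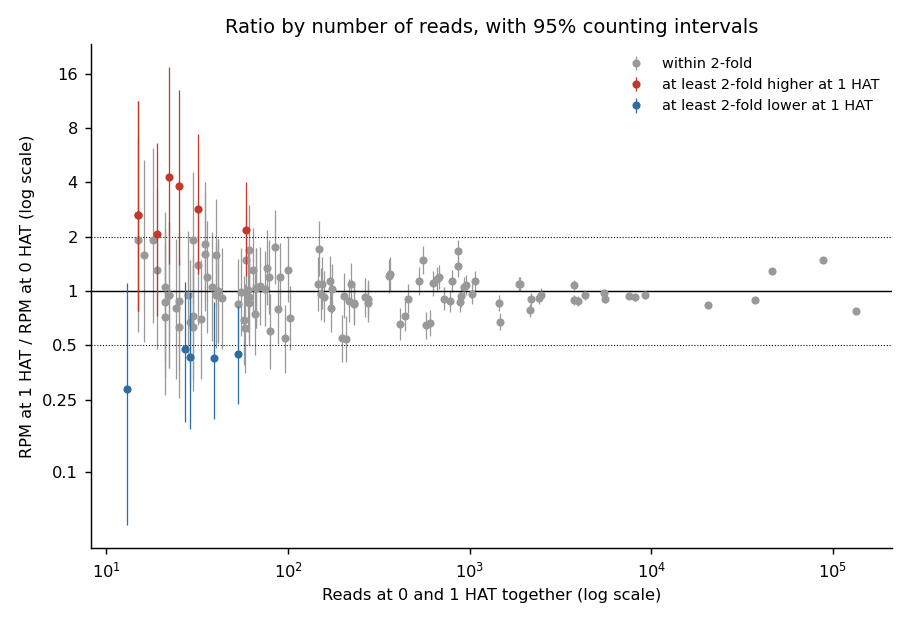
The ratio of RPM at 1 HAT to 0 HAT (log scale) is plotted against the reads of both libraries together (log scale) for 127 rows, with vertical lines for 95% exact counting intervals and dotted lines at 2-fold. All 12 rows past 2-fold had 13 to 59 reads, and rows with more reads lay closer to 1.

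Because each value is a share, the scale itself had to be examined. The 2 most abundant rows moved in opposite directions. Leaving the miR166a row out of both totals multiplied every ratio by 0.888, and leaving miR168a-3p out multiplied every ratio by 1.11. Leaving out both gave 1.00, and the median ratio of the rows gave 1.05. The deposited RPM and the total of listed miRNA reads complete the 6 scalings. These 2 are the same scale by construction, and leaving out both rows nearly repeats it. The interval stayed above 1 in all 6 scalings for 10 rows and below 1 for 13 rows, which are named where they occur below. Of those above 1, miR1427, miR1431, and the miR819a-3p row passed the minimum of 10 reads only at 1 HAT.

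Among the miRNAs of the silencing machinery, miR168 targets AGO1 mRNA and miR162 targets DCL1 mRNA. Both are known for feedback, in which miRNAs limit the proteins that make and use them. miR168a-3p had 34421 reads at 0 HAT and 53830 at 1 HAT, or 169332 and 252184 RPM. Its ratio was 1.49 (1.47 to 1.51), the highest among the 24 rows with 1000 reads or more. The row named miR168a, without an arm, had 10958 and 9568 reads and a ratio of 0.832 (0.809 to 0.855). The rows named after this hairpin thus lay on opposite sides of 1, beyond counting error in all 6 scalings. Mature sequences were not analysed, so these values do not tell which of the rows targets AGO1 mRNA.

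When miR168a is taken as the 5p arm, there were 3.14 reads of the 3p arm per read of the 5p arm at 0 HAT (3.07 to 3.21) and 5.63 at 1 HAT (5.50 to 5.75). Because both rows come from the same library, this ratio does not depend on the total. By their names, 9 hairpins had a 3p row and a row of the other arm among the 127 rows, and the intervals of the arm ratio at 0 and 1 HAT overlapped in 7 of them. The other besides miR168a was miR2871a, whose 3p row also holds miR2871b. It had 354 and 509 reads of the 3p row and 59 and 44 reads of miR2871a-5p, or 6.00 reads of the 3p row per read of the 5p arm at 0 HAT (4.54 to 8.04) and 11.6 at 1 HAT (8.49 to 16.1). For miR396f the intervals overlapped, at 0.0103 (0.00606 to 0.0162) and 0.0207 (0.0148 to 0.0281) reads of the 3p arm per read of miR396f. miR162a had 860 reads at 0 HAT and 612 at 1 HAT, with a ratio of 0.678 (0.610 to 0.753). It was below 1 in all 6 scalings, like the row named miR168a and unlike miR168a-3p. The row of miR162b had 37 and 29 reads.

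**Figure D3:**
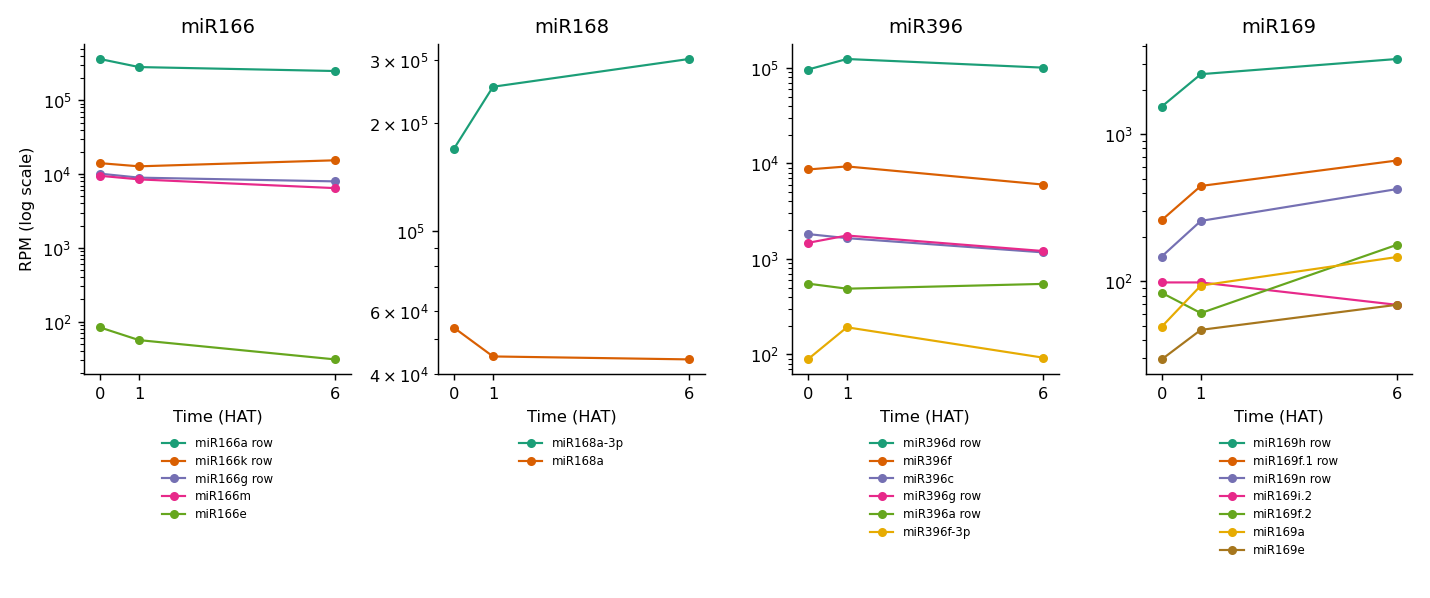
RPM (log scale) of each row of the miR166, miR168, miR396, and miR169 families with at least 10 reads at 0 or 1 HAT is plotted at 0, 1, and 6 HAT, with 1 library per time point. All 5 miR166 rows were lower at 1 HAT than at 0 HAT on the deposited scale, where the miR166k row turns without miR168a-3p in the totals. miR168a-3p and miR168a moved apart.

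Among the families of leaf, root, and stem development, miR166 was the most abundant. It restricts class III HD-ZIP transcription factors, which set the upper face of leaves and vascular patterning. The miR166a row had 73731 reads at 0 HAT and 60204 at 1 HAT, or 362716 and 282045 RPM, a ratio of 0.778 (0.769 to 0.786). The other 4 rows also had ratios under 1, from 0.672 for miR166e, with 17 and 12 reads, to 0.906 for the miR166k row, with 2859 and 2719 reads. Only the miR166a row was below 1 beyond counting error in all 6 scalings, and without miR168a-3p in the totals the miR166k row stood at 1.01. The row of miR166i and miR166j, a name that the study discusses, had 1 read at 0 HAT and 0 at 1 HAT and was below the minimum.

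miR396, which targets growth-regulating factors that promote cell division in leaves, was higher at 1 HAT, and the interval of 4 of its 6 rows lay above 1. The miR396d row, with miR396e, had 19549 and 26494 reads, a ratio of 1.29 (1.27 to 1.31), above 1 in all 6 scalings. Of its other 5 rows, miR396f (1756 and 1985 reads, 1.08), the miR396g row (299 and 375 reads, 1.19), and miR396f-3p (18 and 41 reads, 2.17) had intervals above 1, and that of miR396f-3p stayed there in all 6 scalings. The miR396a row (112 and 104 reads, 0.884) and miR396c (370 and 352 reads, 0.906) were below 1, with intervals that included 1. The sum of the family was 22105 and 29355 reads, a ratio of 1.26 (1.24 to 1.29). Without the miR396d row, the other 5 rows had 2555 and 2857 reads and a ratio of 1.06 (1.01 to 1.12), which ranged from 0.945 to 1.18 over the 6 scalings.

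miR319 and miR159 have related sequences, and target TCP transcription factors of leaf growth and GAMYB transcription factors of gibberellin signalling, respectively. The row of miR319a-3p.2 and miR319b had 244 reads at 0 HAT and 168 at 1 HAT, with a ratio of 0.656 (0.535 to 0.801). miR319a-3p had 33 and 24 reads, with a ratio of 0.693 (0.392 to 1.21), while miR319a-5p had 0 reads in both libraries. For miR159, the miR159a.1 row had 4650 and 4619 reads, a ratio of 0.946 (0.908 to 0.985) that became 1.05 without miR168a-3p in the totals. The smaller miR159f had 354 and 247 reads and a ratio of 0.664 (0.563 to 0.784), below 1 in all 6 scalings like the miR319a-3p.2 row. miR159f and the miR319a-3p.2 row were among the 5 lowest ratios of the 65 rows with at least 100 reads.

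The remaining developmental families did not leave counting error. miR164, which targets NAC factors of organ boundaries, had 285 and 345 reads in sum and a ratio of 1.15 (0.983 to 1.35). miR171, which targets scarecrow-like GRAS proteins, had 521 and 528 reads and a ratio of 0.965 (0.853 to 1.09). In the whole group of 22 developmental rows, 6 ratios were above 1 and 16 below, against 56 and 71 over the 127 rows. The median ratio was 0.914, and 1.02 without miR168a-3p in the totals, and the group went from 53.5% to 47.8% of the reads, while the miR166a row alone went from 36.3% to 28.2%.

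In the auxin pathway families, 9 of 11 rows had ratios above 1 and 2 below, against 56 and 71 of the 127 rows. Their median was 1.10, against 0.952 over all rows, and became 0.974 without the miR166a row in the totals, where 5 rows were above 1 and 6 below and the median over all rows was 0.845. The interval of 4 of the 11 rows lay above 1 and of 1 row below, against 12.6% and 20.5% of all rows. miR394, which targets the F-box protein LCR and is grouped here with the auxin families, had 215 reads at 0 HAT and 335 at 1 HAT. Its ratio was 1.48 (1.25 to 1.77), the only auxin row above 1 beyond counting error in all 6 scalings. miR393, which targets the auxin receptors TIR1 and AFB, had 2040 and 2368 reads over 3 rows and a ratio of 1.11 (1.04 to 1.17), but 0.981 without the miR166a row in the totals.

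The families that target auxin response factors differed little from 1. miR160 had 630 and 754 reads over 3 rows, each above 1, and a ratio of 1.14 (1.02 to 1.27). miR167 had 1738 and 1788 reads and a ratio of 0.980 (0.917 to 1.05), with the miR167a row at 1.13 and the miR167d row at 0.917. miR390, which starts the making of TAS3 small RNAs against other auxin response factors, had 449 and 441 reads and a ratio of 0.935 (0.818 to 1.07). The directions of miR167 and miR390 turned with the scaling.

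**Figure D4:**
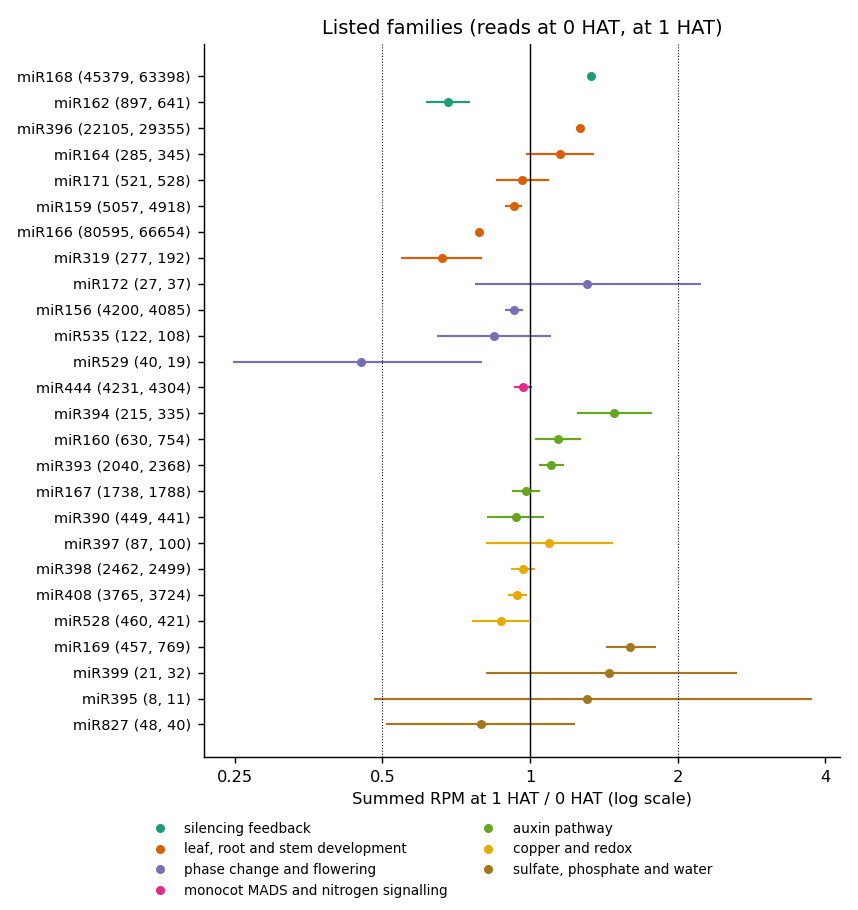
Points give the ratio of summed RPM at 1 HAT to 0 HAT (log scale) of the 26 families with listed targets, and lines give 95% exact counting intervals, with reads at 0 HAT and 1 HAT beside each name and dotted lines at 2-fold. miR169 (1.60) and miR394 (1.48) had the highest ratios with intervals clear of 1, and miR529 (0.452) was the only 1 of the 26 past 2-fold. Directions of miR156, miR159, miR167, miR171, miR390, miR393, miR397, miR398, miR408, and miR444 turn in at least 1 of 6 scalings.

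In the families of phase change and flowering, miR156, miR529, and miR535 target SPL transcription factors, and miR172 targets AP2-like factors. miR156 holds plants in the juvenile phase, and miR172 promotes the adult phase. The miR156a row of 10 names had 4125 reads at 0 HAT and 4000 at 1 HAT, with a ratio of 0.923 (0.884 to 0.965), which turned to 1.03 without miR168a-3p in the totals. miR529b was lower by more, with 36 and 17 reads, or 177 and 79.6 RPM. Its ratio was 0.450 (0.237 to 0.822), below 1 in all 6 scalings, and that of the miR529 sum was 0.452. miR535, with 122 and 108 reads (0.843), and miR172, with 27 and 37 reads (1.31), had intervals that included 1.

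The families tied to copper and redox proteins stayed near 1. They target laccases (miR397), copper/zinc superoxide dismutases (miR398), plantacyanins (miR408), and ascorbate oxidase (miR528), and are known to accumulate when copper is short. miR408 had 3765 and 3724 reads, a ratio of 0.942 (0.900 to 0.986) that became 1.05 without miR168a-3p in the totals. miR398 had 2462 and 2499 reads and a ratio of 0.967 (0.914 to 1.02), and miR397 had 87 and 100 reads and a ratio of 1.09 (0.813 to 1.48). miR528 had 460 and 421 reads and a ratio of 0.872 (0.762 to 0.997), under 1 in each scaling. None of the 5 copper rows was beyond counting error in all 6 scalings.

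The families of sulfate, phosphate, and water use had the highest median of the listed groups, 1.59 over 10 rows, and this was mainly miR169. miR169 targets NF-YA transcription factors, which are known for roles in drought response. The miR169h row of 6 names had 313 reads at 0 HAT and 546 at 1 HAT, or 1540 and 2558 RPM, a ratio of 1.66 (1.44 to 1.92). The row of miR169f.1 and miR169g had 53 and 95 reads and a ratio of 1.71 (1.21 to 2.44), the highest of the 65 rows with at least 100 reads. Both rows were above 1 in all 6 scalings.

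The smaller miR169 rows did not all move with them. The row of miR169n and miR169o had 30 and 55 reads, with a ratio of 1.75 (1.10 to 2.82), miR169a had 10 and 20 reads (1.90), and miR169e had 6 and 10 reads (1.59). miR169i.2 had 20 and 21 reads, a ratio of 1.00, and miR169f.2 had 17 and 13 reads, a ratio of 0.728. The miR169 sum was 457 and 769 reads, with a ratio of 1.60 (1.43 to 1.80).

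The nutrient families were too rare for their ratios to be told from 1. miR395, which targets ATP sulfurylase and a sulfate transporter, had 8 and 11 reads. miR399, which targets the ubiquitin-conjugating enzyme PHO2 in phosphate starvation, had 21 and 32 reads (1.45, 0.811 to 2.65). miR827, which targets SPX-MFS phosphate transporters, had 48 and 40 reads (0.794, 0.508 to 1.23). A 2-fold difference in miR395 was not detectable at this depth.

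miR444, a family of monocots that targets MADS23-like transcription factors of nitrate and root signalling, had 4231 reads at 0 HAT and 4304 at 1 HAT. Its ratio was 0.969 (0.928 to 1.01). Of its 5 rows, the most abundant, with miR444b.2, had 2713 and 2777 reads and a ratio of 0.975, and the interval of 1 row lay below 1.

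The 51 families without a listed target held 65 rows and 13.3% of the reads at 0 HAT and 11.9% at 1 HAT. Their median ratio of 0.952 was that of all rows, and the interval lay above 1 for 4 rows and below 1 for 11 rows. The largest, miR1425-5p, known from rice to target pentatricopeptide repeat genes, had 19314 and 18057 reads and a ratio of 0.890 (0.872 to 0.909). Among these rows with at least 100 reads, miR1878 (133 and 76 reads, 0.544), miR1859 (125 and 72 reads, 0.549), and miR2877 (340 and 231 reads, 0.647) had the lowest ratios. The row of miR2871a-3p and miR2871b had the highest, with 354 and 509 reads and a ratio of 1.37 (1.19 to 1.57). These 4 rows kept to 1 side of 1 beyond counting error in all 6 scalings, as did miR1423b (61 and 35 reads), miR3979-3p (251 and 192 reads), and miR1317-3p (1185 and 972 reads) below 1.

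The 12 rows past 2-fold were all rare, with 160 reads in sum at 0 HAT and 188 at 1 HAT, and 10 belong to families without a listed target. Of the 7 that were higher at 1 HAT, miR1427 had 4 and 18 reads, or 19.7 and 84.3 RPM, a ratio of 4.29 (1.41 to 17.4). The miR819a-3p row of 5 names had 5 and 20 reads and a ratio of 3.81 (1.39 to 13.0). miR1431 had 8 and 24 reads and a ratio of 2.86 (1.24 to 7.36). With miR396f-3p, these 3 rows were above 1 beyond counting error in all 6 scalings. Unlike miR396f-3p, the 3 rows passed the minimum of 10 reads only at 1 HAT, where they were higher. Their intervals do not allow for that selection. The miR5157a-5p row and miR2863c, each with 4 and 11 reads (2.62), and miR531, with 6 and 13 reads (2.06), had intervals that included 1. These rows too passed the minimum of 10 reads only at 1 HAT.

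Of the 5 rows that were lower at 1 HAT, both strands of the miR1428e hairpin were past 2-fold. miR1428e-3p had 27 reads at 0 HAT and 12 at 1 HAT, a ratio of 0.423 (0.195 to 0.864), below 1 beyond counting error in all 6 scalings. The miR1428e-5p row had 20 and 9 reads, a ratio of 0.429 (0.172 to 0.985), and passed the minimum of 10 reads only at 0 HAT. The sum of the miR1428 family had 51 and 22 reads, a ratio of 0.411 (0.237 to 0.690). miR529b, described above, was the third. miR810a, with 10 and 3 reads (0.286, 0.0505 to 1.11), and miR1870, with 18 and 9 reads (0.476, 0.188 to 1.12), had intervals that included 1. Both passed the minimum of 10 reads only at 0 HAT.

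**Figure D5:**
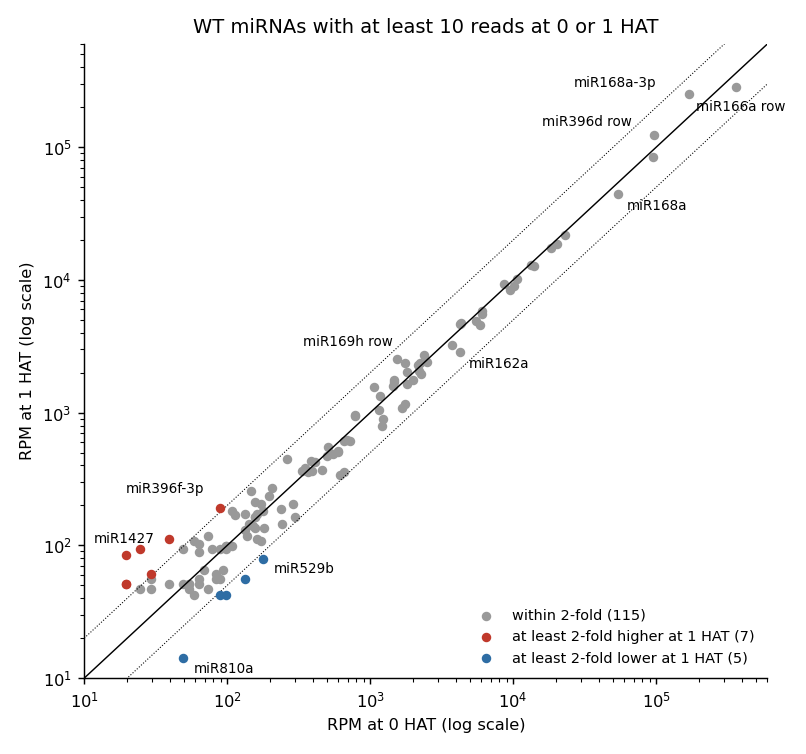
RPM at 1 HAT is plotted against RPM at 0 HAT (both log scales) for 127 rows, with a solid line at equality and dotted lines at 2-fold. The 7 rows that were at least 2-fold higher and the 5 that were at least 2-fold lower lie at the low end, at under 200 RPM in both libraries.

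Rows close to the limits differed from these by few reads. Just past 2-fold were miR531, miR396f-3p, and, on the lower side, miR1870. Just short of 2-fold were miR169a (10 and 20 reads), the miR1861h row (5 and 10 reads), and miR446 (6 and 12 reads), each with a ratio of 1.90. Just inside the minimum of 10 reads were miR169e, the miR1861h row, and miR810a, and just outside it were the miR169b row (7 and 9 reads), miR2863b (5 and 9 reads), and miR397b (3 and 9 reads).

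When reads were summed over families, 8 of 78 families with at least 10 reads were past 2-fold. They were miR1427, miR1431, miR5157, miR1861, and miR531 on the higher side and miR1870, miR1428, and miR529 on the lower side. None of them reached 100 reads. The interval excluded 1 for 27 families, and in all 6 scalings it lay above 1 for miR168, miR169, miR394, miR396, miR1427, and miR1431. In all 6 it lay below 1 for miR162, miR166, miR319, miR529, miR1317, miR1428, miR1859, miR1870, miR1878, and miR2877. The miR1870 sum, with 24 and 10 reads, adds a row under the minimum. The only miR1870 row that met the minimum had 18 and 9 reads and an interval that included 1 (0.188 to 1.12). The miR168 sum was above 1 through miR168a-3p, while the row named miR168a was below 1 in all 6 scalings. miR1427, miR1431, miR5157 (5 and 12 reads), miR1861 (5 and 12 reads), and miR531 (6 and 13 reads) passed the minimum of 10 reads only at 1 HAT. They were higher there, and their intervals do not allow for that selection. The intervals of miR5157 and miR1861 (both 0.750 to 8.28) and of miR531 (0.732 to 6.62) included 1.

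The library of 6 HAT, with 129838 reads, is given beside these values as a description, and its ratios share the library of 0 HAT. These ratios to 0 HAT are on the deposited scale only, without intervals, and were not examined in the other scalings. At 6 HAT the miR166a row had 249303 RPM, 0.687 times its level at 0 HAT, and miR168a-3p had 301239 RPM, 1.78 times its level. There were 6.85 reads of the 3p arm of miR168a per read of the other arm (6.66 to 7.04). The miR169 sum was 2.19 times its level at 0 HAT, and the miR319a-3p.2 row was at 0.398 times its level, with 62 reads.

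Some rows were nearer to their level of 0 HAT at 6 HAT than at 1 HAT, and others were not. The miR396d row stood at 1.05 times its level at 0 HAT and miR394 at 1.17 times. miR396f-3p, with 12 reads, stood at 1.04 times, miR1428e-3p, with 27 reads, at 1.57 times, and miR1427, with 7 reads, at 2.74 times. These 5 rows are examples of the nearer ones, and miR1428e-3p passed from below 1 to above 1. Other named rows were nearer too, such as miR2877 at 0.962 times and miR1859 at 0.852 times. Examples of rows farther from 0 HAT than at 1 HAT were miR529b, with 10 reads and 0.435 times its level, and miR1431, with 23 reads and 4.50 times. The miR819a-3p row, with 17 reads and 5.32 times, was another.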

How the data were processed

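The authors removed adapters from 51-nt reads of small RNA of whole plants, quantified known rice miRNAs of miRBase with miRanalyzer, and deposited RPM values, described as reads of a miRNA divided by aligned reads. Division by the smallest value of each column gave whole reads for 100% of values within 0.001. Depth was 203276, 213459, and 129838 miRNA reads at 0, 1, and 6 HAT. The total of the whole library is unknown, and how reads that match several rows were counted is not given in the sources used here.

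Rows were called at a 2-fold ratio of RPM with at least 10 reads in 1 library, without a test, since there was 1 library per time point. Intervals came from the exact binomial share of a row's reads. The members, lists, and groups were chosen with earlier results of these data known. Named were all rows past 2-fold, the 10 with the most reads, the 5 highest and 5 lowest ratios from 100 reads, the 3 nearest to each limit, miR166j, miR319a, and the listed families. Further rows were named after their values were seen. Alternatives were other minimums, folds, scalings, and added values, equal rows joined, 99% intervals, and Fisher's exact test. The recovery of reads and the intervals were tested on simulated data. Python 3.11.15, numpy 2.4.6, pandas 2.3.3, scipy 1.17.1, and matplotlib 3.10.9 were used. mRNA, long intergenic RNA, the share of miRNAs in the library, and mature sequences were not analysed here.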

Additional observations from a re-analysis of the deposited data

How the results depend on the processing

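The counts past 2-fold depended on the rules for rare rows. The 7 rows higher and 5 lower at 1 HAT became 44 and 40 with no minimum of reads, 0 and 0 with at least 50 reads in 1 library, 18 and 15 at 1.5-fold, and 4 and 1 when the two-sided Fisher's exact test with a Benjamini-Hochberg adjusted p under 0.05 was required as well. That test alone, which compares the reads of both libraries and not the conditions, gave 30 of the 127 rows, 10 higher and 20 lower, and 42 at an unadjusted p under 0.05. The number of families past 2-fold went from 8 to 42 with no minimum. Scalings that leave abundant rows out of the totals were chosen after the data were seen. Without miR168a-3p 11 rows were past 2-fold higher, and without the miR166a row 8 were past 2-fold lower. The median log2 ratio of -0.07 became -0.085 with at least 50 reads, -0.059 with 10 RPM added, -0.24 without the miR166a row, 0.081 without miR168a-3p, and -0.064 without both. Without miR168a-3p, ratios turned to 1.03 for the miR156a row and for the miR156 and miR159 families, 1.05 for the miR159a.1 row and for miR408 as row and as family, and 1.01 for the miR166k row. Without the miR166a row, the miR393 family turned to 0.981. The cause was not tested beyond the construction of these settings. The alternatives for target mRNAs and for the share of miRNAs in the library were not run. No paired analysis was possible because each time point had 1 library. Depth limits ratios of rows with few reads, as 20 reads in each library give an interval of 0.511 to 1.96.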

Other observations

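Of the 165 rows under 10 reads, 54 had 0 reads at 0 and 1 HAT, 27 had 0 reads at 0 HAT only, and 20 at 1 HAT only. The largest values among rows with 0 reads at 0 HAT were those of the row of miR2118e and miR2118r, with 7 reads at 1 HAT and 1 read at 6 HAT, and of the miR819a-5p row, with 5 reads at 1 and at 6 HAT. miR2118 is known in rice for starting phased small RNAs in panicles.

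Some rows with different names held equal reads in all 3 libraries. The row of miR159c and miR159d and that of miR159e both had 11, 11, and 6 reads at 0, 1, and 6 HAT. miR1317-5p.2 and the row of miR1882a to miR1882h both had 32, 35, and 64 reads.

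The arms of miR5150 stood at 7.05 reads of the 3p arm per read of the 5p arm at 0 HAT, 6.70 at 1 HAT (4.17 to 11.3), and 2.95 at 6 HAT (2.16 to 4.06).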
